A study of Mus musculus with 12 samples.

Results

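The genes described here are the collagen genes of the mouse, which encode the protein chains of the main structural proteins of the extracellular matrix. They were chosen by name, as every symbol made of Col, a number, the letter a and a number, among probe sets that the array annotation gives exactly 1 gene symbol. Where a gene had several such probe sets, the one with the highest mean over the 12 arrays stood for it. This gave 44 collagen genes of 19938 genes measured. The genes fall into 5 named classes, with 11 fibrillar, 8 basement membrane, 9 FACIT, 6 microfibrillar and 4 transmembrane collagens, and 6 genes that belong to none of these.

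Expression was measured in quadriceps muscle of C57Bl/6 mice at postnatal day 7, with 1 Mouse Gene 1.0 ST array per mouse. The 6 arrays labelled WT carry the genotype wildtype and the 6 arrays labelled KO the genotype cofilin-2 null. Both groups were littermates under routine care, no treatment was given, and neither the sexes nor the allele is described in the sources used here. Cofilin-2, the product of Cfl2, is the muscle form of a protein that severs and depolymerizes actin filaments, and the comparison asks how its loss changes the transcripts of young muscle.

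Cfl2 itself ran against the labels. Its log2 levels were 4.92 to 7.71 with the label WT and 12.31 to 12.43 with the label KO, so that no array labelled KO showed the loss its label states. Whether this probe set covers the deleted sequence was not examined. The study itself lists Cfl2 among the transcripts that were lower in its knockout mice. The groups are therefore called labelled WT and labelled KO, no array was moved, and every difference is labelled KO minus labelled WT. For the leading genes whose direction the study states in its text, such as Lep, this direction is the opposite one. Array medians were 6.42 to 6.46 with the label WT and 6.35 to 6.41 with the label KO. The SD over probe sets was 2.21 to 2.26 with the label WT, lowest on array WT6, and 2.27 to 2.29 with the label KO. Values were thus spread more widely on every array labelled KO than on any array labelled WT. With arrays there is no read depth, and precision rests on the 6 arrays per group.

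Collagens are built from chains that wind around each other in a triple helix, which requires glycine at regular steps and hydroxylated prolines. Fibrillar collagens assemble into the cables that give tendon, bone and the connective tissue of muscle their strength, type IV collagen forms the sheet-like network of basement membranes around muscle fibres and vessels, and FACIT collagens sit on the surface of fibrils. Type VI collagen forms beaded microfilaments next to the muscle basement membrane, and mutations in its chains cause muscular dystrophies and myopathies. In muscle, most interstitial collagen is made by fibroblasts and related cells of the connective tissue rather than by the muscle fibres.

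Of the 44 collagen genes, 12 were higher and 8 were lower on the arrays labelled KO by limma with Benjamini-Hochberg adjustment over all probe sets tested, at an adjusted p under 0.05, and 24 did not pass. Over all 19938 genes, 31.9% passed the same test, 20.1% as higher and 11.8% as lower. The collagens were thus called at 27.3% higher and 18.2% lower. The levels of the groups did not overlap for 9 of the 44 collagens, against 15.4% of all genes. The median difference of the collagens was -0.05 on the log2 scale and that of all genes -0.015, so that the collagens as a whole had no common direction. Calls ran both ways among the FACIT collagens, with Col14a1 and Col16a1 higher and 4 genes lower. In the fibrillar, basement membrane and microfibrillar classes the calls were higher ones only, and among the transmembrane and unclassed genes lower ones only. Differences between classes were not tested. The class counts below are to be read against the same shares of all genes, 20.1% higher and 11.8% lower. In whole muscle, fewer cells of a type and less RNA per cell cannot be told apart, and this holds for each difference given here.

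**Figure D1:**
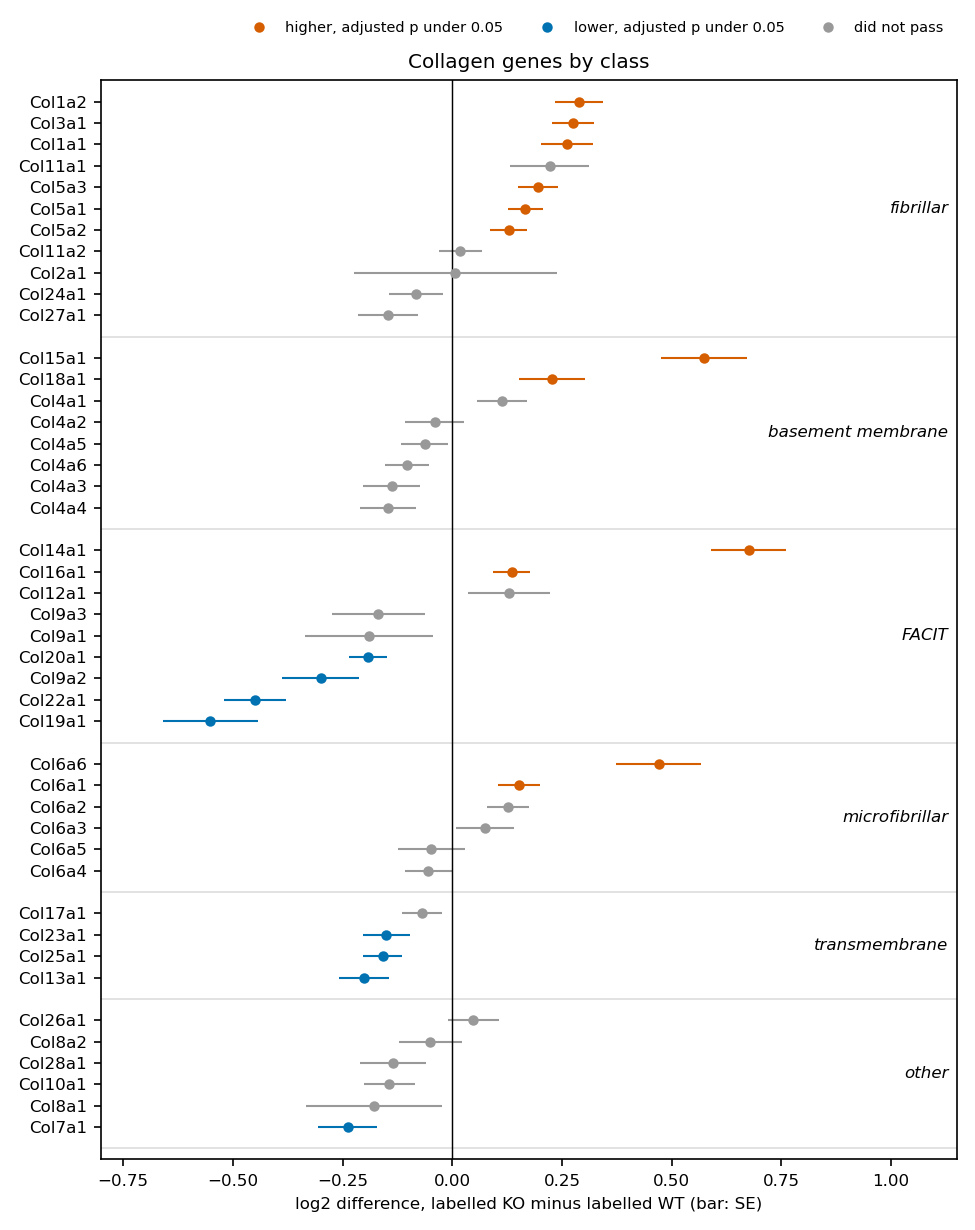
Log2 difference (labelled KO minus labelled WT, horizontal axis) of each of the 44 collagen genes, grouped by class, with bars for the standard error of 6 against 6 arrays. Orange points passed as higher, blue points as lower and grey points did not pass; called fibrillar genes all lie to the right of 0 and called transmembrane genes all lie to the left.

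Fibrillar collagens had 6 of 11 genes higher and 0 lower, with a median difference of 0.17. At an unadjusted p under 0.05, limma gave 1 lower (Col27a1) and the methods' t-test, the unmoderated test that the study names, 0. All 3 major chains of interstitial fibrils rose. Col1a1 and Col1a2 encode the chains of type I collagen, the main collagen of tendon, bone and the muscle connective tissue, and Col3a1 encodes type III collagen, which is enriched in fine, distensible fibrils. Col1a2 ran from 11.56 over a median of 11.74 to 11.86 (log2 level, 6 arrays labelled WT) and from 11.90 over 12.05 to 12.07 on the arrays labelled KO. The groups did not overlap, and the difference was 0.29 ± 0.06 (SE, adjusted p = 0.00138), or 1.22-fold. Col3a1 ran from 11.00 over 11.13 to 11.16 in the group labelled WT and from 11.28 over 11.39 to 11.56 in the group labelled KO. Again every array labelled KO lay above every array labelled WT, by 0.28 ± 0.05 (SE, adjusted p = 0.000757) on average. Col1a1 spanned 12.05 to 12.37 with a median of 12.18 on the arrays labelled WT, and 12.28 to 12.53 with a median of 12.47 on the arrays labelled KO. Its groups overlapped through array KO5 (12.28) and array WT4 (12.37), and its difference was 0.26 ± 0.06 (SE, adjusted p = 0.0039).

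Type V collagen is a minor partner that is built into type I fibrils and limits their diameter, and its 3 genes rose by less than the major chains. Col5a3 had levels of 7.82 to 8.03 on the arrays labelled WT and of 8.06 to 8.19 on the arrays labelled KO, with no overlap (difference 0.20 ± 0.05 SE, adjusted p = 0.00504). Col5a1 reached from 8.56 to 8.74 and from 8.74 to 8.86, so that the groups touched at 1 value (0.17 ± 0.04 SE, adjusted p = 0.00658). Col5a2 differed least, by 0.13 ± 0.04 (SE, adjusted p = 0.0315), and its call was lost under 9 of 22 alternative settings. The fold changes of these 6 called genes were small, from 1.09 for Col5a2 to 1.22 for Col1a2.

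The promoters of Col1a2 and Col3a1 are shown because both genes rose without overlap between the groups. A RefSeq window ends at the start of a transcript, which need not be the start of the whole gene, and only windows that end at the gene start are printed. Each line gives the 250 bases before that start on GRCm38.p6, read 5′ to 3′ on the gene's strand, and capitals mark every match to 3 motifs of basal promoters on either strand: CCAAT, the GC box core GGGCGG, and TATAAA.
Col1a2 (chr6:4505368-4505617, plus strand): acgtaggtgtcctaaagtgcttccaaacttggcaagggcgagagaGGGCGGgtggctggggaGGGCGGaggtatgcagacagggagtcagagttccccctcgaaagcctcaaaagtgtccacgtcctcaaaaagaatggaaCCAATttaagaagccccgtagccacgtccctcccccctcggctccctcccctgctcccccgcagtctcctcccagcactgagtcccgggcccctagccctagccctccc
Col3a1 (chr1:45311288-45311537, plus strand): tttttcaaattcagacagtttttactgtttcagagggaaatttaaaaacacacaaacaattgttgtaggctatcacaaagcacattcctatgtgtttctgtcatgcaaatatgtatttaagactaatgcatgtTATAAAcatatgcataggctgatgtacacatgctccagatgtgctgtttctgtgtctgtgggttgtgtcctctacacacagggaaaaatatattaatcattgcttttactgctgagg
The Col1a2 window held 2 matches to GGGCGG, 205 and 188 bases before the start, and 1 to CCAAT, 109 bases before it. The Col3a1 window held only a match to TATAAA, 117 bases before the start, and the pair thus shared no match. Windows were given for 35 of the 44 collagen genes (38 windows). Of these, 34.2% held CCAAT, 57.9% GGGCGG and 13.2% TATAAA, against 33.8%, 32.7% and 12.4% of the 32851 windows of all genes. These matches describe letters and were not tested as sites.

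The fibrillar chains of cartilage did not pass. Col2a1, the major cartilage collagen, ran from 7.93 to 9.32 on the arrays labelled WT and from 7.97 to 9.03 on the arrays labelled KO, with a difference of 0.01 ± 0.23 (SE). Its spread within each group was the widest among the collagens. The highest level was on array WT3 (9.32), followed by arrays KO4 (9.03), WT4 (8.96) and KO2 (8.73). The same 4 arrays had the highest levels of Col9a1 (7.17, 7.00, 7.09 and 6.92), a FACIT chain of cartilage fibrils, and the highest mean levels of a list of 10 cartilage markers (7.68, 7.24, 7.06 and 7.10). On the 8 other arrays that list lay between 6.30 and 6.86, and its part in the collagen differences was not tested. Col11a1, which encodes a chain of the minor cartilage collagen and is also made outside cartilage, had a difference of 0.22 ± 0.09 (SE, adjusted p = 0.0747). It passed without array WT3 (difference 0.28) and with median centring (0.27). Col11a2, Col24a1 and Col27a1 differed by 0.02, -0.08 and -0.15, and none of them passed.

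**Figure D2:**
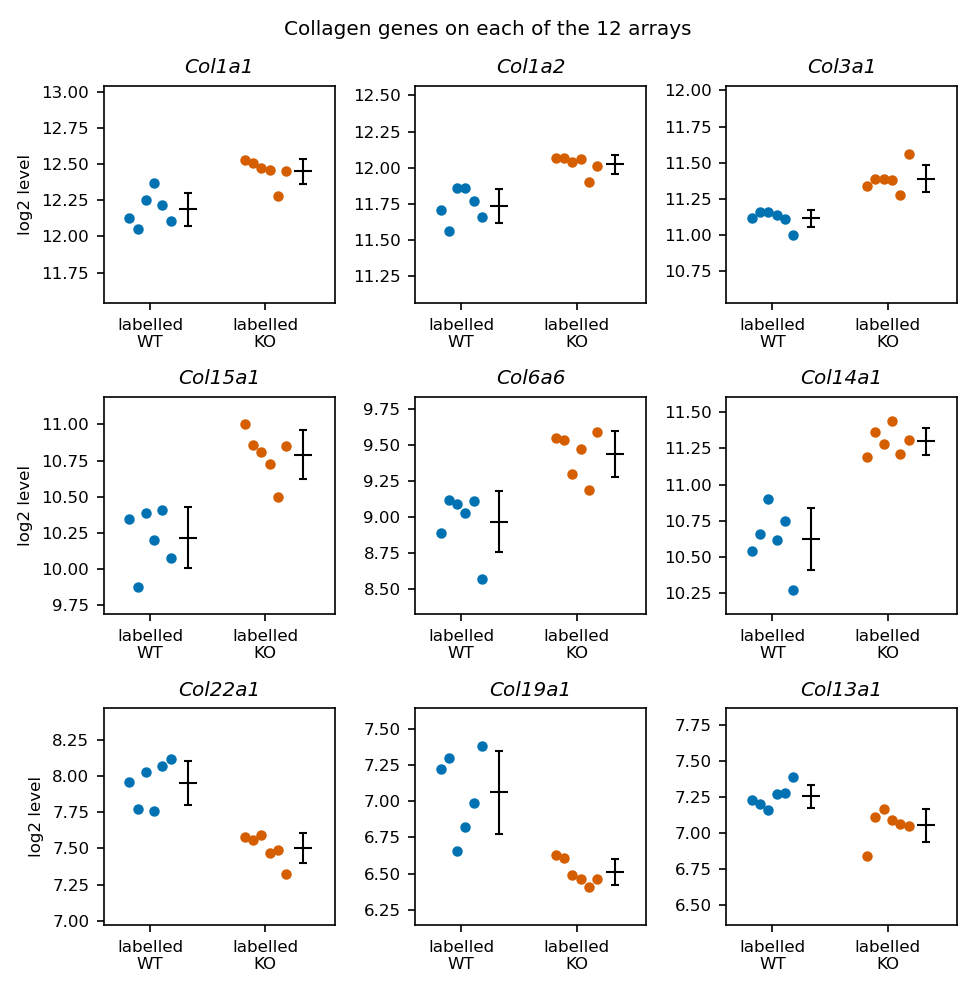
Log2 level (vertical axis, each panel spanning the same range) of 9 collagen genes on each array, blue for arrays labelled WT and orange for arrays labelled KO, with the mean and SD of 6 arrays in black. Col1a2, Col3a1, Col15a1, Col6a6 and Col14a1 lie higher on every array labelled KO, Col22a1 and Col19a1 lie lower on every one, and Col1a1 and Col13a1 overlap.

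Among the basement membrane collagens, 2 of 8 genes rose and 0 fell by limma (all genes 20.1% and 11.8%), with a median of -0.05. Both called genes are multiplexins, collagens that carry heparan or chondroitin sulfate and link the basement membrane to the surrounding matrix. Col15a1, whose protein lies at the outer face of the basement membranes of muscle fibres and capillaries, ran from 9.88 over 10.28 to 10.41 on the arrays labelled WT and from 10.50 over 10.83 to 11.00 on the arrays labelled KO. Its groups did not overlap, with array KO5 the lowest of its group, and the difference of 0.57 ± 0.10 (SE, adjusted p = 0.000599), or 1.49-fold, was the second largest rise among the collagens. Col18a1, the source of endostatin, ran from 7.72 over 7.92 to 8.18 and from 8.06 over 8.16 to 8.32. These ranges overlapped, the difference was 0.23 ± 0.08 (SE, adjusted p = 0.0345), and the call was lost under 10 of 22 alternative settings, among them quantile normalization (0.16).

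The 6 chains of type IV collagen, the network former itself, gave 0 calls in either direction, with differences between -0.15 and 0.11. At an unadjusted p under 0.05, limma gave 1 of the 6 as lower (Col4a4) and 0 as higher, and the methods' t-test 0 in both directions. Col4a1 and Col4a2, which form the common network of muscle and vessels, lay at 9.42 to 9.70 and 9.69 to 9.91 on the arrays labelled WT and at 9.56 to 9.81 and 9.52 to 9.97 on the arrays labelled KO. Their differences were 0.11 ± 0.06 and -0.04 ± 0.07 (SE). The other chains, Col4a3 to Col4a6, which are known best from the basement membranes of kidney, differed by -0.14, -0.15, -0.06 and -0.10.

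FACIT collagens moved in both directions, with 2 of 9 genes higher and 4 lower (all genes 20.1% and 11.8%) and a median of -0.19. Col14a1, whose protein binds fibrils in tendon, skin and muscle connective tissue and limits their growth, had the largest rise of all collagens. It ran from 10.27 over 10.64 to 10.90 on the arrays labelled WT and from 11.19 over 11.30 to 11.44 on the arrays labelled KO, a clear gap between the groups. The difference was 0.68 ± 0.09 (SE, adjusted p = 7.3e-05), or 1.6-fold. Col16a1, a FACIT of fibroblasts and smooth muscle, rose by 0.14 ± 0.04 (SE, adjusted p = 0.025) from levels of 7.41 to 7.58 to levels of 7.54 to 7.68, and its call was lost under 6 of 22 settings. Col12a1, a close relative of Col14a1 in this class and a gene mutated in a congenital myopathy, lay at 10.50 to 11.16 and 10.91 to 11.22 and did not pass (0.13 ± 0.09 SE, adjusted p = 0.308).

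The FACIT genes that fell include the collagens known for muscle attachment and muscle development. Col22a1, which encodes a collagen of the junction between muscle and tendon, ran from 7.76 over 8.0 to 8.12 on the arrays labelled WT and from 7.32 over 7.53 to 7.59 on the arrays labelled KO. The groups did not overlap, and Col22a1 fell by 0.45 ± 0.07 (SE, adjusted p = 0.00033) on the log2 scale. Col19a1, a collagen of basement membrane zones that is expressed in developing muscle, ran from 6.66 over 7.11 to 7.38 and from 6.41 over 6.48 to 6.63. It fell by 0.55 ± 0.11 (SE, adjusted p = 0.00163), again with no overlap, and its spread was wide on the arrays labelled WT (SD 0.29) and narrow on those labelled KO (SD 0.09). Col20a1 lay within 7.42 to 7.49 on the arrays labelled WT and at 7.12 to 7.37 on the arrays labelled KO, with no overlap, and fell by 0.19 ± 0.04 (SE, adjusted p = 0.00436). Col9a2, a chain of cartilage fibrils, fell by 0.30 ± 0.09 (SE, adjusted p = 0.0189) from levels of 7.37 to 7.76 to levels of 6.98 to 7.43, while its partners Col9a1 (-0.19 ± 0.15 SE) and Col9a3 (-0.17 ± 0.11 SE) did not pass. Array WT3, the highest for the cartilage markers, was also the highest for Col9a2 (7.76), and Col9a2 passed in the fit without it.

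The Col9a2 promoter is shown because its window ended at the gene start, whereas those of the called FACIT genes Col16a1, Col19a1 and Col20a1 ended 23, 485 and 3212 bases downstream of it. Motifs are marked as above.
Col9a2 (chr4:121039316-121039565, plus strand): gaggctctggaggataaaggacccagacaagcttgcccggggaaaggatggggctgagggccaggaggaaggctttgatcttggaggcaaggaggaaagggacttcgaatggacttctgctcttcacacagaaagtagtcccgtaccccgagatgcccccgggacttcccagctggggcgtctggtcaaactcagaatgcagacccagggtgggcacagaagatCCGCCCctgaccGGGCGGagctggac
It held 2 matches to GGGCGG, 26 and 14 bases before the start, and none to CCAAT or TATAAA.

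Microfibrillar collagens had 2 of 6 genes higher and 0 lower by limma (all genes 20.1% and 11.8%), with a median of 0.10. At an unadjusted p under 0.05, 0 were lower by limma or the methods' t-test. The 3 chains of the classical type VI trimer had small differences. Col6a1 ran from 10.71 over 10.90 to 10.94 on the arrays labelled WT and from 10.91 over 11.05 to 11.07 on the arrays labelled KO, and rose by 0.15 ± 0.05 (SE, adjusted p = 0.0242). That call was lost in 1 of 22 settings, the fit without array KO3. Col6a2 (0.13 ± 0.05 SE, adjusted p = 0.0616) and Col6a3 (0.08 ± 0.07 SE, adjusted p = 0.407) did not pass.

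Col6a6, one of 3 long chains that can take the place of the Col6a3 product, moved most in this class. It ran from 8.57 over 9.06 to 9.12 on the arrays labelled WT and from 9.19 over 9.50 to 9.59 on the arrays labelled KO, with no overlap and a difference of 0.47 ± 0.10 (SE, adjusted p = 0.00229), or 1.39-fold. Its second probe set differed by 0.24 (adjusted p = 0.0262) in the same direction. Col6a5 and Col6a4, its neighbours in the genome, differed by -0.05 and -0.06 and did not pass. The probe sets of Col6a5 disagreed, since the second and dimmer one was higher by 0.33 ± 0.09 (SE, adjusted p = 0.00934), with levels of 5.09 to 5.48 and 5.37 to 5.88. The direction of Col6a5 is therefore uncertain.

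**Figure D3:**
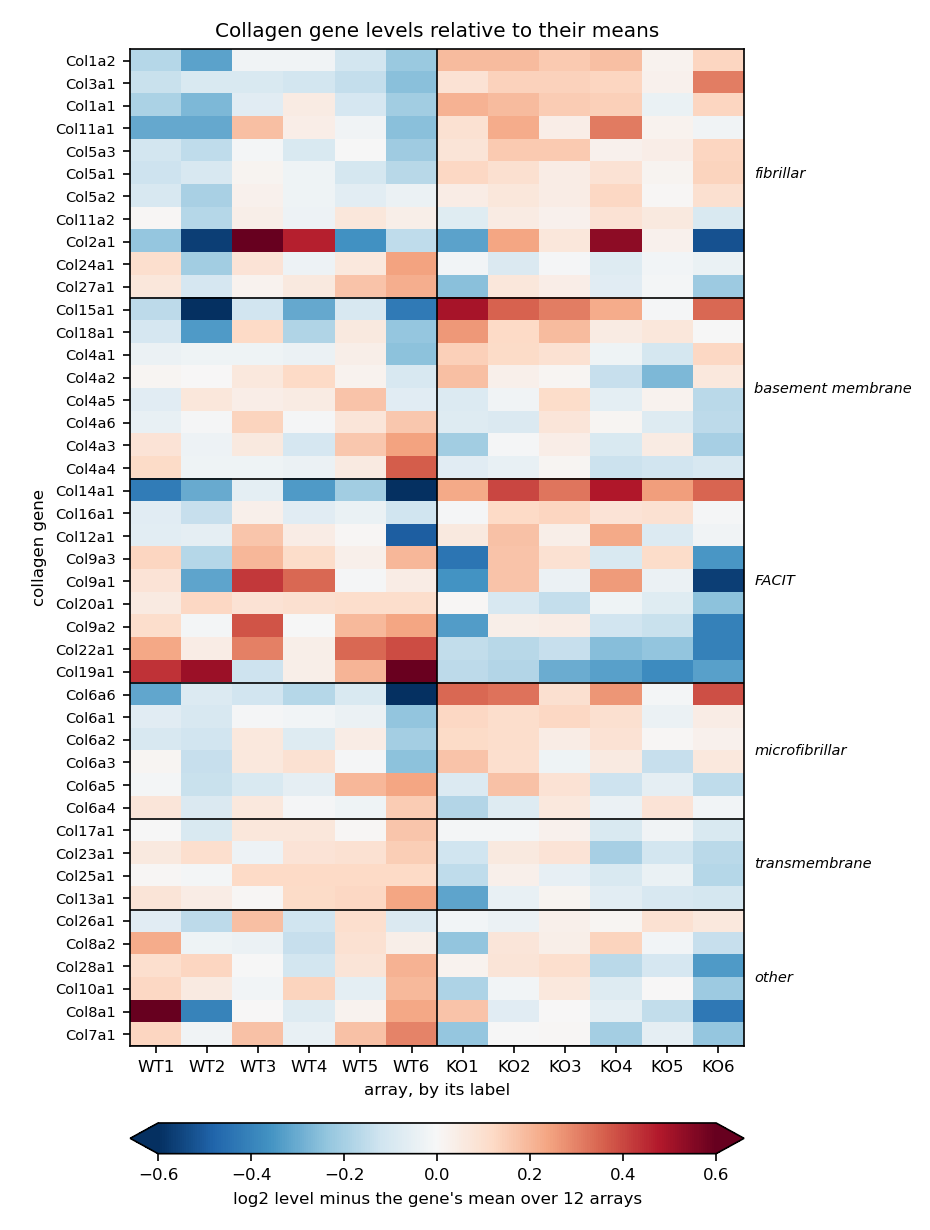
Log2 level of each of the 44 collagen genes (rows, by class) on each of the 12 arrays (columns, by label) minus the gene's mean over the 12 arrays, from blue (0.6 or more below) over white to red (0.6 or more above). The upper fibrillar rows, Col15a1, Col14a1 and Col6a6 turn from blue to red between the labelled groups, Col22a1 and Col19a1 turn from red to blue, and Col2a1 and Col9a1 vary within both groups.

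Transmembrane collagens, which sit in the plasma membrane and whose outer parts can be shed, had 0 of 4 genes higher and 3 lower by limma, with a median of -0.15, and 0 were higher at an unadjusted p under 0.05 by limma or the methods' t-test. Col13a1 encodes a collagen of the neuromuscular junction that is required for its maturation. It ran from 7.16 over 7.25 to 7.39 on the arrays labelled WT and from 6.84 over 7.08 to 7.17 on the arrays labelled KO, with overlap by arrays WT3 and KO3, and fell by 0.20 ± 0.06 (SE, adjusted p = 0.0144). Col25a1, which takes part in the innervation of muscle by motor neurons, lay at 6.91 to 7.04 and at 6.75 to 6.95 and fell by 0.16 ± 0.04 (SE, adjusted p = 0.0152). Col23a1 fell by 0.15 ± 0.05 (SE, adjusted p = 0.0489), just inside the threshold, and its call was lost under 15 of 22 settings. Col17a1, a hemidesmosome collagen of skin, differed by -0.07 ± 0.05 (SE) and did not pass. With median centring of the arrays, which moved the median of all genes from -0.015 to 0.04, only Col13a1 of this class passed.

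Of the 6 remaining genes, Col7a1 was the only call. It encodes the anchoring fibrils that tie epithelial basement membranes to the matrix below, ran from 7.23 over 7.43 to 7.57 and from 7.04 over 7.15 to 7.28, and fell by 0.24 ± 0.07 (SE, adjusted p = 0.0153) with overlapping groups. Col8a1, a short chain of vessel and eye matrix, varied widely on the arrays labelled WT (6.94 to 8.10) and differed by -0.18 ± 0.15 (SE). Col8a2, Col10a1, Col26a1 and Col28a1 differed by -0.05, -0.14, 0.05 and -0.14. Col10a1, the marker of hypertrophic cartilage, lay between 4.88 and 5.29 over the 12 arrays.

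The direction of the calls also followed the level on the array, a split noticed after the values were seen. Of the 19 collagens with a mean log2 level of 8 or more, 11 were higher and 0 were lower by limma, with a median difference of 0.17, and 0 were lower at an unadjusted p under 0.05 by limma or the methods' t-test. Of the 25 below 8, 1 was higher (Col16a1) and 8 were lower, with a median of -0.15. Levels here are means over all 12 arrays, so the split rests partly on the values it describes. Col5a3 and Col18a1, both called higher, averaged 7.935 and 7.948 on the arrays labelled WT and 8.13 and 8.175 on those labelled KO. By the arrays labelled WT alone, both lay below 8. Among all genes, 33.2% of those at 8 or more were higher and 15.1% were lower, with a median of 0.07, and 12.3% of those below 8 were higher and 9.88% were lower, with a median of -0.04. A probe set's level also depends on its probes, no detection calls were given, and the background of these arrays is unknown, so that the size of a difference in a dim gene is not exact. The SD over probe sets was also larger on every array labelled KO than on any labelled WT, and its part in the split by level was not tested. The share of higher calls over all genes moved with the centring, from 62.9% (4000 higher and 2359 lower) to 79.3% (5135 and 1339) with median centring and 62.1% (3686 and 2252) with quantile normalization. The collagens then gave 14 higher and 6 lower calls with median centring and 9 and 8 with quantile normalization, against 12 and 8.

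Chains that share a trimer or a fibril were compared within each array, which asks whether partners moved by different amounts. For 11 pairs the difference of the log2 levels of both chains was taken per array and compared between the groups by a two-sided exact permutation test over the 924 assignments of the arrays, whose smallest p is 0.00216. No pair passed after Benjamini-Hochberg adjustment over the 11 pairs. Type I collagen had the narrowest spread in both groups, and Col1a1 minus Col1a2 was 0.45 ± 0.04 (SD, n = 6) on the arrays labelled WT and 0.43 ± 0.03 (SD, n = 6) on the arrays labelled KO. The difference between the groups was -0.03 ± 0.02 (SE, exact permutation p = 0.284, adjusted p = 0.608). Col1a1 minus Col3a1 differed by -0.01 ± 0.06 (SE) and Col5a1 minus Col5a2 by 0.04 ± 0.03 (SE). Col4a1 minus Col4a2, whose genes lie head to head and share a promoter region, came nearest to passing. It ran from -0.28 to -0.11 on the arrays labelled WT and from -0.16 to 0.04 on the arrays labelled KO, a shift of 0.15 ± 0.04 (SE, exact permutation p = 0.00649, adjusted p = 0.0714). Only arrays KO1 (-0.16), WT2 (-0.15) and WT5 (-0.11) lay in the shared range, and without array KO1 the pair passed (0.18, adjusted p = 0.0476 from the exact permutation test). With any other array left out the pair did not pass, at adjusted p from 0.0714 to 0.143 in the exact permutation test. Col11a1 minus Col11a2 shifted by 0.20 ± 0.09 (SE, exact permutation p = 0.0455, adjusted p = 0.25) and Col6a1 minus Col6a3 by 0.08 ± 0.04 (SE, adjusted p = 0.325 from the exact permutation test). Adjusted p of the 7 other pairs lay between 0.608 and 0.903.

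**Figure D4:**
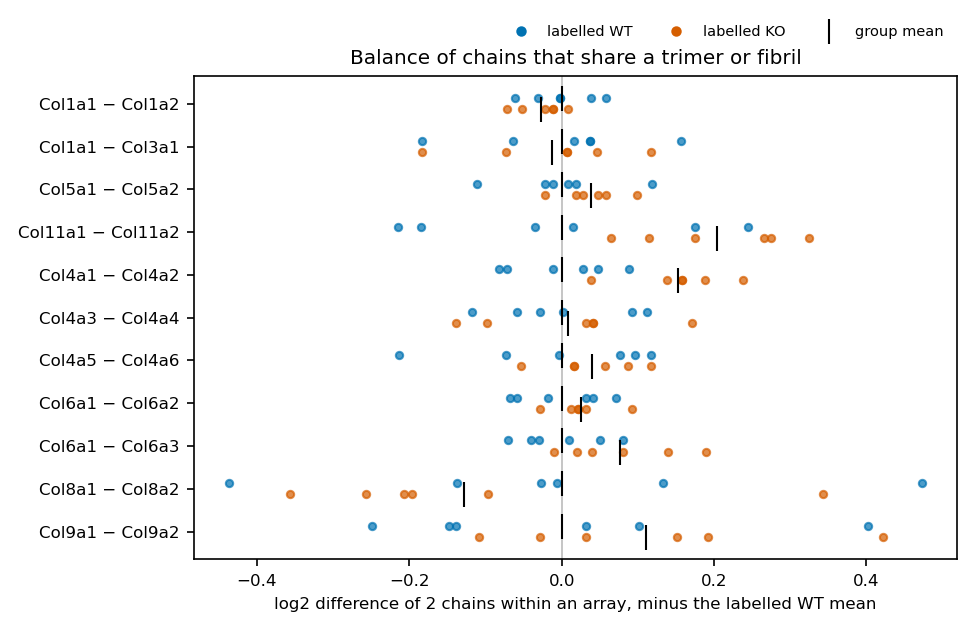
Within-array log2 difference between 2 collagen chains, minus the mean of the arrays labelled WT for that pair (horizontal axis), for 11 pairs of chains that share a trimer or fibril. Each point is 1 array (blue labelled WT, orange labelled KO) and black strokes mark the group means, that of the arrays labelled WT at 0; the Col4a1 and Col4a2 pair shows a shift of 0.15 and the Col1a1 and Col1a2 pair one of -0.03.

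The genes that make, carry, bind and break down collagens were read in 7 lists of 89 measured genes. The shares among all genes, 20.1% higher and 11.8% lower, stand beside each count, and no list was tested as a set. The list for chain modification and folding had 16 of 20 genes higher and 2 lower, with a median difference of 0.32. Prolyl 4-hydroxylases make the hydroxyproline that keeps the triple helix stable at body temperature. P4ha2 ran from 7.01 over 7.17 to 7.54 on the arrays labelled WT and from 8.05 over 8.14 to 8.18 on the arrays labelled KO, a difference of 0.90 ± 0.09 (SE, adjusted p = 1.04e-05), or 1.86-fold, with a wide gap between the groups. P4ha3 rose by 0.70 ± 0.17 (SE) and Fkbp14, a folding enzyme whose loss causes a form of Ehlers-Danlos syndrome, by 0.73 ± 0.08 (SE). Serpinh1, the collagen chaperone HSP47, was higher by 0.54 and Crtap, part of the complex that 3-hydroxylates fibrillar chains, by 0.53. The exceptions were P3h2, a prolyl 3-hydroxylase known for acting on type IV collagen, and Tmem38b, an endoplasmic reticulum potassium channel mutated in osteogenesis imperfecta. P3h2 ran from 9.40 over 9.64 to 10.02 and from 8.63 over 8.81 to 8.84, and fell by 0.89 ± 0.10 (SE, adjusted p = 2.58e-05) on the log2 scale. Tmem38b fell by 0.36 ± 0.08 (SE), and its call was lost when the mean of its probe sets was used (-0.22).

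Secretion of procollagen had 3 of 9 genes higher and 0 lower by limma (all genes 20.1% and 11.8%), with a median of -0.06. Creb3l1, a transcription factor that drives procollagen genes and their transport, rose by 0.63 ± 0.08 (SE, adjusted p = 9.48e-05), and the COPII coat genes Sec24d (0.25) and Sec13 (0.19) rose less, Sec13 with a call that several settings removed. Propeptide removal had 4 of 9 genes higher and 0 lower by limma, with a median of 0.18. In neither list was a gene lower at an unadjusted p under 0.05 by limma or the methods' t-test. The procollagen C-proteinases Tll1 (0.62 ± 0.10 SE) and Bmp1 (0.37 ± 0.06 SE) rose together with Pcolce2 (0.38 ± 0.09 SE), which enhances their action. Cross-linking enzymes gave 0 of 5 calls in either direction by limma, with a median of 0.16, and at an unadjusted p under 0.05 limma gave 2 of 5 higher and the methods' t-test 1. This count of 0 moved with the setting, to 2 higher with median centring and without array WT2 and to 1 with array weights, without array WT1 and without array WT3.

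Collagen breakdown and its inhibitors had 3 of 14 genes higher and 1 lower, with a median of 0.06. Higher calls were thus near the share among all genes (20.1% higher, 11.8% lower). Timp4, an inhibitor of matrix metalloproteinases found in muscle and heart, changed most of all 89 genes. Its level ran from 9.16 over 9.74 to 10.69 on the arrays labelled WT and from 7.97 over 8.09 to 8.53 on the arrays labelled KO, and it fell by 1.72 ± 0.23 (SE, adjusted p = 9.37e-05) on the log2 scale with no overlap. Mmp16 (0.60 ± 0.09 SE) and Mmp14 (0.30 ± 0.08 SE), membrane-bound metalloproteinases, and Fap (0.45 ± 0.07 SE), a fibroblast surface protease, rose. Mmp9, Mmp13 and Mmp8 did not pass, and array WT4 alone stood at 10.13, 8.29 and 7.19, where no other array exceeded 6.43, 5.82 and 4.74.

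Collagen receptors had 3 of 9 genes higher and 3 lower, with a median of 0.09. Itga2, the alpha chain of an integrin for type I collagen, rose by 0.81 ± 0.11 (SE, adjusted p = 0.000153). Ddr2, a receptor kinase for fibrillar collagens, rose by 0.41 ± 0.06 (SE), and Itga11, an integrin chain of fibroblasts, by 0.36 ± 0.10 (SE). Adgrg1, a receptor for type III collagen, fell by 0.53 ± 0.13 (SE), Itga10, an integrin chain of cartilage, by 0.32 ± 0.07 (SE), and Itgb1, the beta chain shared by the collagen-binding integrins, by 0.26 ± 0.03 (SE, adjusted p = 9.47e-05). Matrix partners had 6 of 23 genes higher and 1 lower (all genes 20.1% and 11.8%), with a median of 0.06. Pxdn, the peroxidase that makes the sulfilimine cross-link of type IV collagen, rose by 0.61 ± 0.10 (SE), and the basement membrane genes Nid2 and Lama4 rose by 0.60 ± 0.10 and 0.34 ± 0.09 (SE). Lama2, the laminin chain of muscle fibre basement membranes that is mutated in congenital muscular dystrophy, ran from 10.87 over 11.08 to 11.20 and from 10.40 over 10.64 to 10.94 and fell by 0.41 ± 0.08 (SE, adjusted p = 0.00211).

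**Figure D5:**
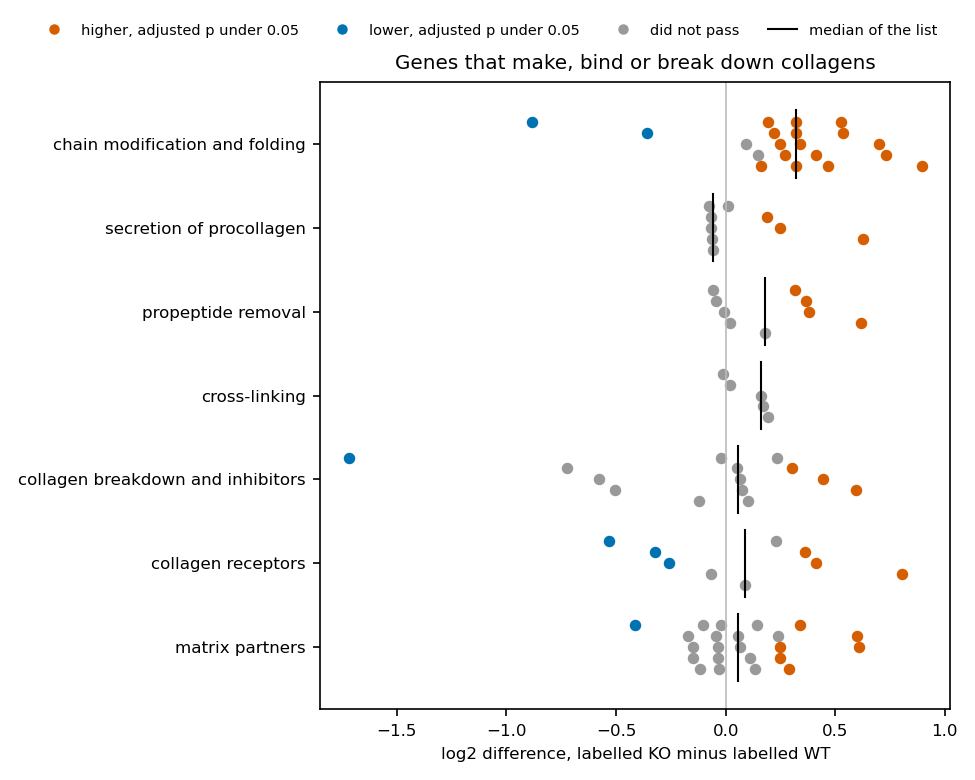
Log2 difference (labelled KO minus labelled WT, horizontal axis) of each gene in 7 lists of genes that make, carry, bind or break down collagens, with a black stroke at the median of each list. Orange points passed as higher, blue as lower and grey did not pass; the chain modification and folding list has 16 orange points, 2 blue points and a median of 0.32.

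Markers of 10 cell types or tissues were read beside the collagens, against shares of 20.1% higher and 11.8% lower among all genes. Fibroblast, endothelial and macrophage markers had mean levels that did not overlap between the labelled groups, and the other 7 lists overlapped. The part of any of them in the collagen differences was not tested. Of 10 fibroblast markers, 7 were higher and 1 lower, with mean levels of 9.50 to 9.88 under the label WT and of 10.07 to 10.31 under the label KO. Thy1 and Dpt rose by 1.06 ± 0.14 and 0.91 ± 0.10 (SE), while the receptor gene Pdgfra fell by 0.29 ± 0.09 (SE). Of 8 tendon markers, 3 were higher and 2 lower, with mean levels of 9.70 to 10.11 and 9.91 to 10.16. Kera and Tnmd rose by 0.95 ± 0.16 and 0.53 ± 0.12 (SE). Thbs4 and Chodl fell by 0.36 ± 0.07 and 0.44 ± 0.11 (SE), Thbs4 with no overlap between the groups. Scx, the transcription factor of tendon cells, differed by -0.01 ± 0.09 (SE). 

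Endothelial markers had 6 of 10 genes higher and 0 lower, with mean levels of 9.64 to 10.00 and of 10.07 to 10.13, led by Kdr (0.40) and Pecam1 (0.36). Macrophage markers had 7 of 10 higher and 0 lower, with mean levels of 8.11 to 8.59 and of 8.63 to 8.80, led by Adgre1 (0.88) and C1qb (0.51). Adipocyte markers had 4 of 9 higher and 0 lower, led by Lep (2.12) and Plin1 (1.72), and their mean level lay at 8.46 to 9.29 on the arrays labelled WT, at 8.37 on array KO5 and at 9.46 to 9.87 on the other arrays labelled KO. Array KO5 was also the lowest of its group for Col1a1, Col1a2, Col3a1, Col15a1 and Col6a6, and all 5 kept their call without it. Other collagens had their lowest value of the group on array KO5 as well, among them Col4a1, Col4a2, Col5a1, Col5a2, Col6a1, Col6a2, Col6a3 and Col12a1. Pericyte and smooth muscle markers had 2 of 10 higher and 2 lower (mean levels 9.57 to 9.72 and 9.44 to 9.70), with the falls in Cnn1 (0.95) and Cspg4 (0.49) the widest. Kcnj8 and Rgs5 rose by 0.285 and 0.27. The groups did not overlap for Kcnj8 and Rgs5, but they overlapped for Cnn1 and Cspg4. Schwann cell markers had 2 of 7 higher, S100b (0.35) and Pmp22 (0.22), and 0 lower, with mean levels of 7.77 to 8.04 and 7.69 to 8.03. None of the endothelial, macrophage, adipocyte and Schwann cell markers was lower at an unadjusted p under 0.05 by limma or the methods' t-test.

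Cartilage markers had 1 of 10 genes higher, Acan (0.64), and 1 lower, Chad (-0.88), with mean levels of 6.53 to 7.68 and 6.30 to 7.24. Bone markers, of which 5 of 10 listed had a probe set of their own, gave 0 calls in either direction by limma and 0 at an unadjusted p under 0.05 by limma or the methods' t-test, with mean levels of 5.53 to 6.91 and 5.55 to 6.03. The value of 6.91 was that of array WT4, on which Ibsp, a bone matrix protein, stood at 7.82 against at most 6.55 on the others. Array WT4 was also the highest of its group for Col1a1, and Col1a1, Col1a2 and Col3a1 kept their calls without it. Muscle fibre markers had 2 of 10 genes higher and 4 lower, with mean levels of 12.48 to 12.61 and 12.48 to 12.55. Pygm rose by 0.34 ± 0.03 (SE) and Des fell by 0.25 ± 0.04 (SE). The markers of the labelled tissue were thus bright on all 12 arrays.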

How the data were processed

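Total RNA of quadriceps from 12 mice was extracted with a kit for fibrous tissue and hybridized to GeneChip Mouse Gene 1.0 ST arrays. The authors extracted the images with the Affymetrix operating software and made normalized gene level values with Affymetrix Power Tools. The sources used here give no version, summary method or build. The deposited table names no scale, and log2 was read from its values.

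Groups came from the sample titles. Of 35556 probe sets, the 21789 with 1 gene symbol in the platform annotation were fitted with lmFit and eBayes of limma 3.58.1 (R 4.3.3), unpaired and without covariates, and p-values were adjusted by Benjamini-Hochberg over all of them at 0.05. No normalization or filter was added. A fold is 2 to the power of a log2 difference. A setting is 1 of 22 alternatives (another normalization or centring, variance options, array weights, a replicate block, all rows, dim probe sets left out, the mean of probe sets, the methods' t-test with and without adjustment, each array left out). Chain pairs were compared by exact permutation.

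Collagens were named in full, with their values, as were the chains of the pairs, up to 3 called genes in each direction per partner list and up to 2 per marker list. Serpinh1, Crtap, Pdgfra, Scx, Thbs4, Chodl, Kcnj8, Rgs5, Mmp8, Mmp9, Mmp13 and Ibsp were named after their values were seen. The members and lists were chosen with earlier results of these data known. Promoter windows came from a RefSeq table of GRCm38.p6, and those of Col1a1, Col2a1, Col4a3, Col5a2, Col9a3, Col12a1, Col14a1, Col22a1 and Col26a1 were not used here.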

Additional observations from a re-analysis of the deposited data

Results flagged for a closer look

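Of 160 groups of 6 arrays examined, 10 had 1 array far from the others, and chance alone marks about 1 group in 20. Array KO5 was low for Col1a1 (12.28, the others 12.45 to 12.53), Col1a2 (11.90, the others 12.01 to 12.07), P3h2 (8.63, the others 8.79 to 8.84) and Pxdn (10.78, the others 10.92 to 10.98). Array WT6 was low for Col3a1 (11.00, the others 11.11 to 11.16), Col4a1 (9.42, the others 9.63 to 9.70) and Col12a1 (10.50, the others 10.93 to 11.16). Array KO1 was low for Col13a1 (6.84, the others 7.05 to 7.17) and high for the difference Col8a1 minus Col8a2 (0.83, the others 0.13 to 0.39). Array WT1 was low for Itga10 (6.89, the others 7.11 to 7.22).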

How the results depend on the processing

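Of the 20 called collagens, 14 kept their call under all 22 settings (Col1a1, Col1a2, Col3a1, Col5a1, Col5a3, Col15a1, Col9a2, Col14a1, Col19a1, Col20a1, Col22a1, Col6a6, Col13a1 and Col7a1). The others lost it in 1 (Col25a1, Col6a1), 6 (Col16a1), 9 (Col5a2), 10 (Col18a1) and 15 (Col23a1) settings. With each array left out in turn, 9 to 14 collagens were higher and 7 to 9 lower, and among the partner genes 35 higher and 7 lower in the main test became 32 to 42 and 6 to 10 over all settings. Basement membrane genes called higher fell from 2 to 1 with array weights, with the methods' t-test after adjustment and with quantile normalization. FACIT genes called higher fell from 2 to 1 with quantile normalization and with a trended, robust variance. Transmembrane genes called lower fell from 3 to 1 with median centring, and the unadjusted t-test of the methods called 2 of the unclassed genes lower rather than 1. With 1 array left out, the counts ranged from 1 to 2 (basement membrane higher, FACIT higher, unclassed lower), from 0 to 1 (fibrillar lower, 1 without array WT2, Col24a1) and from 1 to 3 (microfibrillar higher, 1 without array KO3). With the mean of its probe sets, Col6a5 turned from -0.05 to 0.14 (adjusted p = 0.0227), since its probe sets disagree. Col4a1 minus Col4a2 ranged from 0.14 to 0.18 with 1 array left out. The cause was not tested for the other changes. The sources do not say that equal numbers in the titles mark littermates, and the deviations of same-numbered arrays from their group means correlated between -0.223 and 0.168. With the replicate block 11 collagens were higher and 7 lower, Col5a2 and Col23a1 being lost. The methods' t-test gave 14 higher and 9 lower unadjusted and 11 and 7 after adjustment. Arrays without detection calls leave the signal over background unknown, which limits the dim collagens most.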
